A study of Arabidopsis thaliana with 4 samples.

Results

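AAP2, UMAMIT27 and UMAMIT36 are 3 Arabidopsis thaliana genes for amino acid transporters, taken by their gene identifiers, '830781', '837687' and '843362', from the 11508 genes that the deposited tables list. They were chosen for their large differences between libraries in these same tables, so their values are given as a description and carry no test. Calli of root origin, wild type Col-0, were compared in 4 groups with 1 sample each, for salt-responsive genes linked to pigment metabolism. A callus is a mass of dividing, largely unorganised plant cells grown on solid medium. One group was left untreated on Murashige and Skoog (MS) medium, another received the synthetic auxin 2,4-D at 0.5 mg/L, another 100 mM NaCl, and the last both agents. All calli had been raised from roots of 30-day-old plants on medium with 2,4-D and renewed every 3 weeks, so the untreated group had met the auxin too. Salt treatment lasted 4 weeks. The RNA of each group had been pooled, and no spread between samples was measured.

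The tables compare libraries coded 1A, 2A, 3A and 4A, and the labels do not say which code is which treatment. Each difference below is therefore between coded libraries, not between treatments. A gene is in a table only where the authors called it changed, which here means a log2 fold change of 1 or more in size together with a false discovery rate (FDR) below 0.001. The 6 tables hold 3 independent contrasts, because they pair the same 4 libraries in every way. The depth of the libraries is unknown here. Of the 8 fixed markers of callus and root founder cells, 7 were listed as higher in 2A and in 4A than in 1A, where 11.3% and 12.9% of protein-coding genes were, and 5 in 3A, where 8.55% were. LBD29, a regulator of callus formation, was listed in none of the tables, which does not give its level.

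Amino acids are the main form in which plants move nitrogen between organs, and they need carriers to cross membranes. AAP permeases take up amino acids together with protons, and AAP2 is known from the phloem, where it transfers amino acids that arrive in the xylem. UMAMIT proteins are facilitators that let amino acids pass out of cells, and several are known from veins, roots and developing seeds.

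In the RefSeq annotation of the TAIR10.1 assembly, AAP2 (AT5G09220) lies on the plus strand of chromosome 5 from 2866222 to 2869156 and has 1 annotated transcript with 7 exons. UMAMIT27 (AT1G11450) lies on the plus strand of chromosome 1 from 3853184 to 3855507 and has 5 annotated transcripts of 1035 to 1468 bases. UMAMIT36 (AT1G70260) lies on the minus strand of chromosome 1 from 26456774 to 26459570, with 1 transcript of 7 exons. The length that the authors used was 1926 bases for AAP2 and 1653 bases for UMAMIT36, which equals the annotated transcript in each case. For UMAMIT27 it was 1202 bases in 2 tables and 1187 bases in 3 tables, both between its shortest and its longest annotated transcript.

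Because AAP2 and UMAMIT27 had the same order of 3A, 2A and 1A, the 250 bases before the annotated start of each are shown, read 5′ to 3′ on the strand of the gene from the TAIR10.1 assembly of RefSeq. They span chr5:2865972-2866221 for AAP2 and chr1:3852934-3853183 for UMAMIT27, and no other annotated gene overlaps them. Capitals mark matches to any of the 3 motifs searched on both strands, which were ACGTG, the core of abscisic acid response elements, TTGAC, the core of the W box bound by WRKY factors, and TGTCTC, an auxin response element.
AAP2: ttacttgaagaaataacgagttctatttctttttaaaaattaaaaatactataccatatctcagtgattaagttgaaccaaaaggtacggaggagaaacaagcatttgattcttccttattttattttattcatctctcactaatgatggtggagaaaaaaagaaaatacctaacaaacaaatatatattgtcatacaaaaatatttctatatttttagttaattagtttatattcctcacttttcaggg
UMAMIT27: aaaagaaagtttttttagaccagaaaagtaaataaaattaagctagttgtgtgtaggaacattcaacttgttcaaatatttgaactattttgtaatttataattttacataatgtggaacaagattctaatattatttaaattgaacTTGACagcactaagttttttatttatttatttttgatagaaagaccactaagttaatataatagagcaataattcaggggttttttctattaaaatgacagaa
The only match was TTGAC in UMAMIT27, which begins 103 bases before the start. ACGTG and TGTCTC were found in neither window. Among 27443 windows of the same length before protein-coding genes, ACGTG was present in 22.9%, TTGAC in 44.9% and TGTCTC in 10.9%. A match is a description of letters and not of a binding site, and its absence refers to these windows alone.

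AAP2 was the member listed in all 6 tables, and its order of levels was 3A, 2A, 1A and 4A from highest to lowest. The log2 fold change of 3A over 1A was 6.64 in the authors' deposited table, a 99.9-fold difference with an FDR listed as 0. Between 2A and 1A it was 3.08, with an FDR of 1.5e-36 in the authors' deposited table. Relative to its level in 3A, AAP2 stood at 8.46% in 2A, at 1.00% in 1A and at 0.203% in 4A. Library 3A was thus far above the others, and all neighbours in the order were called different by the authors.

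Library 4A was the lowest for AAP2. The log2 fold change of 4A over 3A was -8.94 in the authors' deposited table, with an FDR listed as 0. Against 2A the authors' deposited table gives -5.38, with an FDR of 4.24e-54. The difference from 1A was smaller, at -2.30 in the authors' deposited table, and its FDR of 0.000471 lay closest to the limit of listing among the values of the 3 genes. By size, 4A over 3A ranked 118th of the 6356 genes in that authors' deposited table and 3A over 1A ranked 165th of 3730.

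UMAMIT27 had the same order of 3A, 2A and 1A. The log2 fold change of 3A over 1A was 6.79 in the authors' deposited table, with an FDR of 2.11e-36. That of 2A over 1A was 4.25 in the authors' deposited table, with an FDR of 7.43e-06, and that of 3A over 2A was 2.54, with an FDR of 3.39e-19. Its level in 2A was 17.2% and in 1A 0.904% of that in 3A. The fold of 2A over 1A was a whole number, 19. The low level in 1A limits how precisely the folds of UMAMIT27 over 1A are known.

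UMAMIT27 was also listed as lower in 4A than in 3A and in 2A, with FDRs of 5.6e-39 and 7.3e-07 in the authors' deposited table. No fold is given for these, because all its folds over 4A, listed or obtained by subtraction, were whole numbers. Whole-number folds from every other library can arise where the lower library stands at the smallest step of the scale, and a fold against such a value has no fixed size. Lower calls in 4A against 2A, which AAP2 and UMAMIT27 share, covered 8.28% of protein-coding genes and higher ones 3.23%. The comparison of 4A with 1A is not listed for this gene, so those libraries were not called different.

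UMAMIT36 was high in 3A alone. The log2 fold change of 3A over 1A was 6.42 in the authors' deposited table, with an FDR of 2.9e-123. Over 2A it was 7.25 in the authors' deposited table, with an FDR of 7.68e-128, and 4A over 3A was -8.84, with an FDR of 1.33e-132. Its levels in 1A, 2A and 4A were 1.16%, 0.655% and 0.218% of that in 3A.

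The remaining libraries did not differ by the authors' calls for UMAMIT36. By subtraction of deposited values, the log2 difference of 2A from 1A was -0.83, that of 4A from 2A was -1.58 and that of 4A from 1A was -2.42. The last is as large as the difference that was called for AAP2, yet it is not listed. The fold of 3A over 4A was a whole number for UMAMIT36 and for AAP2 as well. For UMAMIT36 the fold of 2A over 4A, obtained by subtraction, was a whole number too, at 3. The folds of 1A over 4A, obtained by subtraction or listed, were not whole numbers for either gene. Library 4A was therefore not treated as standing at the smallest step for them. How far above that step it stood is unknown, which limits how precisely their folds over 4A are known.

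**Figure D1:**
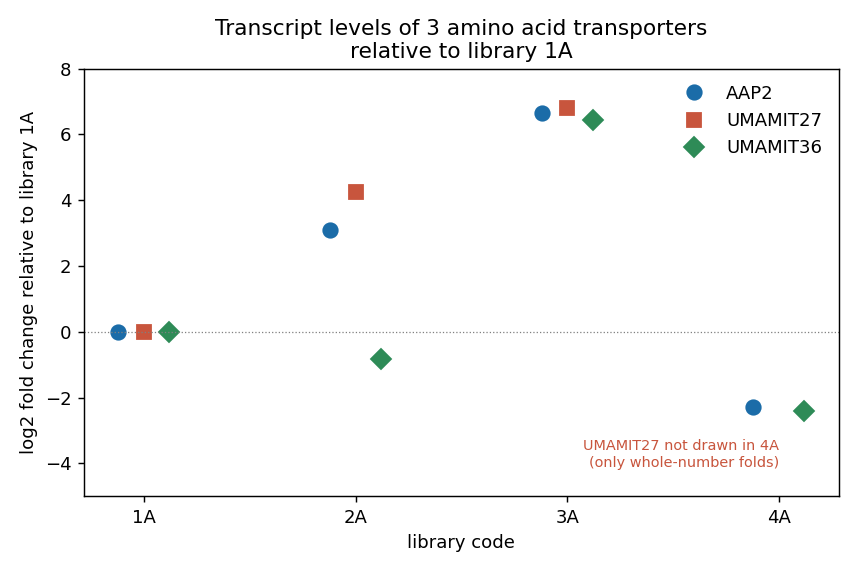
Log2 fold change of AAP2, UMAMIT27 and UMAMIT36 in each library relative to library 1A, from the deposited fold changes, with 1 pooled sample per library and no error bars. The 3 genes lie between 6.42 and 6.79 in 3A, whereas in 2A AAP2 is at 3.08, UMAMIT27 at 4.25 and UMAMIT36 at -0.83.

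The 3 genes thus shared a high level in 3A and differed in 2A. In 2A, AAP2 and UMAMIT27 were above 1A and UMAMIT36 was not listed. All 3 genes were listed as higher in 3A than in 1A, where 8.55% of the 27562 protein-coding genes of the reference were. All 3 were lower in 4A than in 3A, a direction listed for 14.3% of protein-coding genes. Since the genes were picked from these comparisons, nothing is read from those counts. Background shares use all annotated protein-coding genes, because how many genes the authors tested is not given in the sources used.

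Reads may be shared between near-identical genes. No stretch of 50 bases in the transcripts of AAP2 or UMAMIT36 occurred in a transcript of another gene. In UMAMIT27, 117 of 1773 such stretches did, 111 of them in UMAMIT26, the next gene downstream on the same strand (chromosome 1, 3856942 to 3859465), and 14 in UMAMIT28. UMAMIT26 was listed in none of the tables. UMAMIT28, known from amino acid export in developing seeds, was at 2.01 in 3A over 1A and at -2.26 in 4A over 3A in the authors' deposited table. How such reads were divided was not stated in the sources used.

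For each member, the genes with the most similar values were taken as those with the smallest root mean square difference of log2 fold changes over the comparisons in which the member is listed. Closest to AAP2 among 96 genes with a symbol that are listed in all 6 comparisons was NRT1.5, a nitrate and potassium transporter of xylem loading, at 0.84. It had log2 fold changes of 5.25 in 3A over 1A, 2.43 in 2A over 1A and -7.90 in 4A over 3A in the authors' deposited table. MLP34, of the major latex protein family, followed at 1.36 and the peroxidase gene RCI3 at 1.69.

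For UMAMIT27, over 5 comparisons and 135 genes, the same rule gave AAP2, NRT1.5 and GSTF11, a glutathione transferase of glucosinolate synthesis. Of these 5 comparisons, 2 are against 4A, where the folds of UMAMIT27 have no fixed size, so no distance or order is given for them. For UMAMIT36, over 3 comparisons and 745 genes, it gave NIP6;1, a boric acid channel, FPF1, a promoter of flowering, and SWEET13, a sugar exporter. These 3 had whole-number folds over 2A and 4A, and SWEET13 over 1A as well. Their own folds over those libraries have no fixed size, so their distances are not given either.

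The other members of both families were read from lists of the 8 AAP genes and of the 44 UMAMIT genes, of 47 named, that matched the annotation. Of the 7 AAP genes besides AAP2, 1 was higher and 0 lower in 3A than in 1A, against 8.55% and 4.19% of protein-coding genes. It was AAP4, at 1.15 in the authors' deposited table, against 6.64 for AAP2. In 3A against 2A, 3 of the 7 were higher and 1 lower, against 11.3% and 7.55% of protein-coding genes. AAP7 was at 4.13 there in the authors' deposited table, above AAP2 at 3.56. In 2A, where AAP2 was above 1A, 3 of the 7 were lower and 1 higher, against 9.79% and 11.3% of protein-coding genes. AAP7 was at -4.05, AAP6 at -1.82 and AAP4 at -1.54 in the authors' deposited table, with AAP5 at 1.03. The direction of AAP2 in 2A over 1A was thus shared by AAP5 only among its listed relatives.

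In 4A, 4 of the 7 AAP genes were lower than in 3A, as AAP2 was, where 14.3% of protein-coding genes were. Against 1A, too, 4 of the 7 were lower, where 13.1% of protein-coding genes were, and the other AAP genes were not listed in either comparison. AAP7 was at -8.68, AAP4 at -5.80, AAP3 at -3.91 and AAP6 at -2.39 in 4A over 3A in the authors' deposited table. AAP3 is known from the root phloem and AAP6 from xylem parenchyma. AAP1 and AAP8, which are known from amino acid import into seeds, were listed in none of the tables.

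Among the 42 UMAMIT genes besides UMAMIT27 and UMAMIT36, 15 were higher and 3 lower in 3A than in 1A. These are 35.7% and 7.14%, against 8.55% and 4.19% of protein-coding genes. Their listed values had a median of 1.97, against 1.33 for all genes in that table. UMAMIT19 reached 5.12 and UMAMIT29, an exporter known from seeds, 5.05 in the authors' deposited table. None of those listed among the 42 thus matched the values of 6.79 and 6.42. UMAMIT18, also named SIAR1 and known from root and silique veins, was at 3.81, and UMAMIT14, known to unload amino acids from the root phloem, at 3.60 in the authors' deposited table.

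Against 2A, 19 of the 42 were higher in 3A and 1 was lower, where 11.3% and 7.55% of protein-coding genes were. Without UMAMIT19, whose fold over 2A has no fixed size, UMAMIT14 had the highest value, at 6.87 in the authors' deposited table. UMAMIT36 exceeded it at 7.25 and UMAMIT27 lay below it at 2.54. In 4A against 3A, 19 were lower and 2 higher, against 14.3% and 7.62% of protein-coding genes. UMAMIT30 was at -8.99 and UMAMIT18 at -7.72 in the authors' deposited table. Leaving out genes whose folds over 4A were all whole numbers, the median over 17 listed UMAMIT genes was -5.17. With none left out it was -5.24 over 21 genes, against -1.43 for all genes in the table, also with none left out. In 4A against 1A, 19 of the 42 were lower and 3 higher, where 13.1% and 12.9% of protein-coding genes were, and UMAMIT36 and UMAMIT27 were listed in neither direction.

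In 2A, UMAMIT27 and most of its listed relatives stood on opposite sides of 1A. Of the 42 other UMAMIT genes, 12 were lower in 2A than in 1A and 2 were higher, against 9.79% and 11.3% of protein-coding genes. The higher ones were UMAMIT34 at 5.37 and UMAMIT5 at 1.36 in the authors' deposited table. UMAMIT5, also named WAT1, is known as a vacuolar auxin carrier. UMAMIT20 was the lowest at -4.12 in the authors' deposited table, whereas UMAMIT27 was at 4.25.

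**Figure D2:**
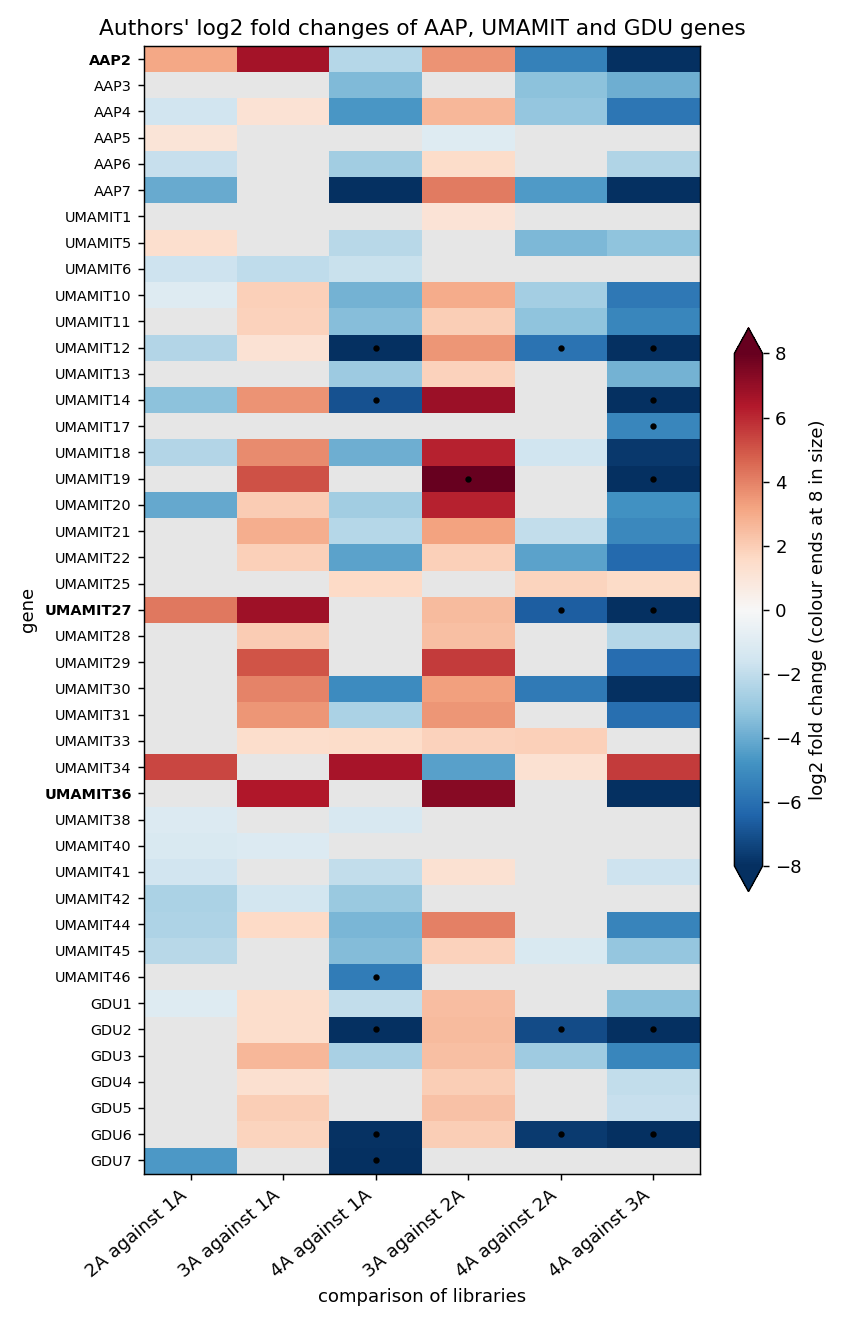
Authors' log2 fold changes (colour) of the AAP, UMAMIT and GDU genes listed in any table (rows) in the 6 comparisons of libraries (columns). Grey marks comparisons in which a gene is not listed, and dots mark folds over a library from which all the folds of that gene are whole numbers. AAP2, UMAMIT27 and UMAMIT36 have the darkest values in 3A over 1A, at 6.64, 6.79 and 6.42.

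GDU genes encode membrane proteins that promote amino acid export. In 3A over 1A, 6 of 7 were higher, where 8.55% of protein-coding genes were, with 2.65 for GDU3 as the highest in the authors' deposited table, so their size was well below that of the 3 transporters. In 4A over 3A, 6 of 7 GDU genes were lower, where 14.3% of protein-coding genes were, and GDU3 was at -5.24 in the authors' deposited table.

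Among 10 CAT and BAT genes, which carry cationic and other amino acids, 0 were listed in 3A against 1A, where 8.55% of protein-coding genes were higher and 4.19% lower. Likewise 0 were listed in 4A against 1A, where 12.9% were higher and 13.1% lower. In 3A against 2A, 1 was higher and 2 were lower, against 11.3% and 7.55% of protein-coding genes. In 4A against 3A, 2 of the 10 were higher and 0 lower, against 7.62% and 14.3%. In the list of 11 LHT, ProT, GAT and ANT genes, 1 was lower and 0 higher in 3A than in 1A, against 4.19% and 8.55% of protein-coding genes. It was GAT1, a carrier of gamma-aminobutyric acid, at -1.29 in the authors' deposited table. In 4A against 3A, 3 of the 11 were lower and 1 higher, against 14.3% and 7.62%. The higher one was LHT7, at 4.10 in the authors' deposited table, where AAP2 and UMAMIT27 were lower. It was at -4.74 in 3A over 2A, where they were higher, and at 4.50 in 2A over 1A, where they were higher as well, in the authors' deposited table.

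**Figure D3:**
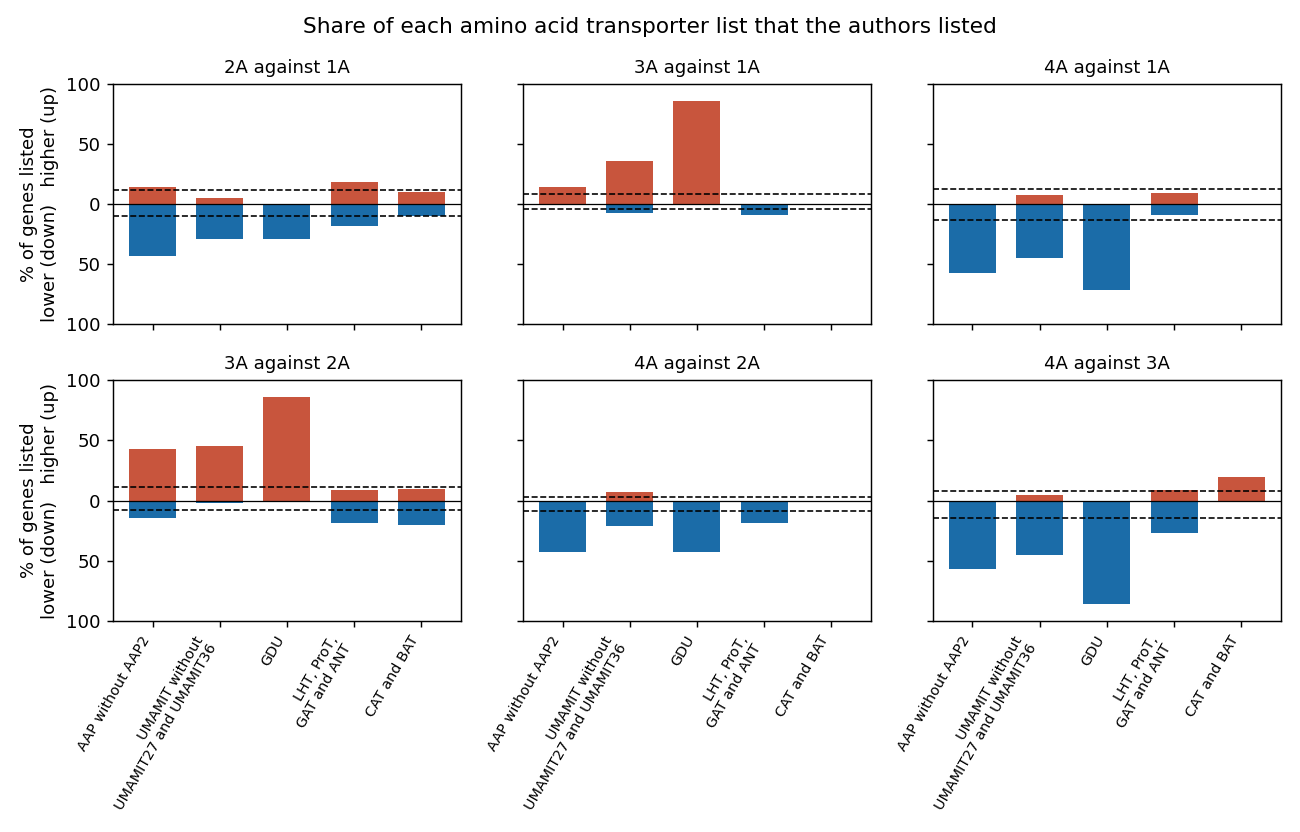
Share of the genes in each transporter list, without AAP2, UMAMIT27 and UMAMIT36, that the authors listed as higher (red, upward) or lower (blue, downward) in each comparison, in percent. Dashed lines give the share of all protein-coding genes, such as 8.55% higher in 3A against 1A, where GDU genes reach 85.7%.

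Most phloem markers were lower in 4A. Of the 11 markers, 10 were lower in 4A than in 3A and 10 lower than in 1A, where 14.3% and 13.1% of protein-coding genes were, and 0 were higher in either. Against 2A, 8 were lower in 4A and 1 was higher, where 8.28% and 3.23% of protein-coding genes were. The higher one was AHA3, a proton pump of companion cells, at 1.17 in the authors' deposited table. In 4A over 3A, the 10 listed markers ran from -9.15 for SWEET11 to -1.27 for CALS7 in the authors' deposited table, with AAP2 at -8.94. SWEET12 was at -8.32 there. SUC2, the sucrose carrier of companion cells, was at -4.47, and APL, a regulator of phloem identity, at -4.56. SEOR1, a sieve element protein, was at -4.96 in the authors' deposited table. In 3A over 1A, 2 of the 11 were higher and 0 lower, against 8.55% and 4.19% of protein-coding genes. They were the sucrose exporters SWEET11 at 5.34 and SWEET12 at 2.97 in the authors' deposited table, while SUC2, APL and SEOR1 were not listed. In 2A, 7 markers were lower and 1 higher than in 1A, against 9.79% and 11.3% of protein-coding genes, and AAP2 and UMAMIT27 were higher there. In 3A against 2A, 9 were higher and 0 lower, against 11.3% and 7.55%. The part of phloem cells in the values of the 3 transporters was not tested. Fewer cells of a type and less RNA per cell cannot be told apart in such samples.

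Enzymes that make and use amino acids showed smaller differences than the 3 transporters in 3A over 1A. In that comparison, 5 of 23 genes of the glutamine, asparagine and proline lists were higher and 0 lower. The shares of protein-coding genes were 8.55% and 4.19%. P5CS1, which makes proline under salt and drought, was highest at 2.14, with GLN1;4, a cytosolic glutamine synthetase, at 1.79 in the authors' deposited table. ASN1, an asparagine synthetase induced by sugar shortage, was not listed there. Its values were 3.58 in 2A over 1A, 5.07 in 4A over 1A and 4.28 in 4A over 3A in the authors' deposited table. ASN1 was thus higher in 4A than in 3A, where AAP2, UMAMIT27 and UMAMIT36 were lower. The lists as a whole went both ways there, with 5 of the 23 genes higher and 6 lower. The shares of protein-coding genes were 7.62% and 14.3%. Among the lower ones were PRODH2 at -3.59 and GLN2 at -2.18 in the authors' deposited table.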

How the data were processed

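Callus mRNA selected by its poly-A tail was sequenced on a BGISEQ-500, per the labels' protocols. The build TAIR10 and the tools Bowtie, Bowtie2 2.2.5, Cufflinks, HISAT and StringTie 1.0.4 are in the submitters' processing notes. Which test gave the calls is not given in these sources. The first sheets of 6 deposited workbooks were used. The deposited log2 fold changes have the library named second as numerator, per the file headers. The p-value and FDR columns and the gene length are the authors', per the file headers. A further 36 columns of per-library values were not used, because their codes match no sample label, so levels are given only as ratios from the deposited fold changes. Depth is therefore unknown, and counting error could not be set beside the values.

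The members and lists were chosen with earlier results of these data known. Gene identifiers were matched to RefSeq TAIR10.1. In single-transcript genes, 94.0% to 95.7% of the deposited lengths equalled the annotated one, and coordinates and sequences come from that annotation. One sequence is not reported here. Of 47 UMAMIT names, 44 matched, and UMAMIT16, UMAMIT39 and UMAMIT43 did not. A fold was called a whole number within a relative tolerance of 1e-09. Genes named were the members, list genes led by the 2 highest and 2 lowest, and the 3 nearest genes with a symbol, with other list genes chosen after their values were seen. With 1 sample per group no test was run, and levels, pseudocounts and filters planned for them were not computed. The fold and whole-number steps were tested on simulated data. Python 3.11.15, NumPy 2.4.6, pandas 2.3.3 and Matplotlib 3.10.9 were used.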

Additional observations from a re-analysis of the deposited data

How the results depend on the processing

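Of the 14 listed log2 fold changes of the 3 genes, the 11 of AAP2 and UMAMIT27 could also be obtained by subtraction through another library, in 18 cases, and were the same within 1e-06 in all of them, as ratios of the same libraries must be. None could be formed for UMAMIT36. At a 4-fold threshold the number of the 3 genes listed did not move in any of the 6 comparisons. At an FDR limit of 1e-05 the number listed in 4A against 1A went from 1 to 0, which concerns AAP2. Without whole-number folds the number went from 2 to 1 in 2A against 1A and in 4A against 2A, and from 3 to 0 in 4A against 3A. A further setting, chosen after seeing the data, left out folds over a library with only whole-number folds. With it the number went from 2 to 1 in 4A against 2A and from 3 to 2 in 4A against 3A.

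For the 80 amino acid transporter genes, the 4-fold threshold lowered the count of lower genes in 2A against 1A from 20 to 9, of higher genes in 3A against 1A from 25 to 13 and of higher genes in 3A against 2A from 33 to 21. For the 23 metabolism genes it lowered the listed count to 1 in 3A against 1A, to 5 in 4A against 1A, to 5 in 3A against 2A, to 1 in 4A against 2A and to 5 in 4A against 3A. The other settings run kept these counts within 1.5 times. A threshold on size removes genes by construction.

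No paired analysis was possible because each group had 1 pooled sample. Pseudocounts and filters on levels were not run, since no per-library column was tied to a sample. With no replicate and unknown depth, a low level in 1A, 2A or 4A limits how precisely the folds of the 3 genes are known.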

Other observations

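UMAMIT34 had log2 fold changes of 5.62 in 4A over 3A, 6.62 in 4A over 1A and 1.24 in 4A over 2A in the authors' deposited table. It was at -4.37 in 3A over 2A and at 5.37 in 2A over 1A in the authors' deposited table, and was not listed in 3A against 1A. UMAMIT33 was higher in 3A and in 4A than in 1A, at 1.40 and 1.47 in the authors' deposited table. UMAMIT25 was higher in 4A than in 1A, 2A and 3A, at 1.58, 1.80 and 1.51 in the authors' deposited table. These 3 genes were chosen after their values were seen.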
